A study of Homo sapiens with 9 samples.

Results

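The metzincin proteases of the ADAM and ADAMTS families and the TIMP inhibitors that restrain them were followed through 9 genes: ADAMTS1, ADAMTS5, ADAM9, ADAM10, ADAM12, ADAM17, TIMP1, TIMP2 and TIMP3. All probe sets whose platform annotation gave exactly 1 gene symbol, and that symbol one of these 9, were taken. This gave 28 of the 54613 probe sets that measure transcripts, from 1 probe set for TIMP1 to 5 for ADAM12, and all 28 passed the filter on dim signal. RNA came from U87, an established human glioma cell line, on 1 Affymetrix human expression array per sample. Each culture of 100000 cells received a miRNA duplex at 50 nM with a lipid reagent and RNA was taken 24 h later. The groups were transfected with miR-376a*G, miR-376a*A or a control miRNA, so the control cells had also been transfected. Each group had 3 biological replicates. The A form is the unedited miRNA. The G form stands for the edited one, in which adenosine has become inosine and is read as guanosine. Both forms were introduced as duplexes into a single cell line, which limits the groups as a model of editing.

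The sequence of the unedited form is shown because the forms differ within it. It is the 5p arm of the miR-376a hairpin in RefSeq (GRCh38.p14, chr14:101040788-101040809, plus strand), written 5′ to 3′ with the seed, bases 2 to 8, in capitals. The sequence of the edited form was not used here.
hsa-miR-376a-5p: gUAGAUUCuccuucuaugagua

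ADAM proteases sit in the cell membrane and release the outer parts of growth factor precursors, receptors and adhesion molecules, a step called shedding. ADAMTS proteases lack the membrane anchor, are secreted, and cut matrix proteins such as the proteoglycans versican and aggrecan, and the brain matrix is rich in such proteoglycans. TIMPs are small secreted proteins that block the catalytic site of matrix metalloproteinases, and TIMP3 also inhibits several ADAM and ADAMTS enzymes, among them ADAM17 and the aggrecan-cleaving ADAMTS5. The arrays measure transcripts, so neither enzyme activity nor shedding was read here.

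The values are linear signal intensities, which had the same 2% trimmed mean of 100.01 on every array. Differences are on the log2(signal + 16) scale, which understates changes of dim probe sets, and fold values are on that scale too. A gene passed at an adjusted p under 0.05 in limma over 20068 features, each gene being represented by its brightest probe set. The features include probe sets without a single gene symbol, so shares of all features are not shares of genes. Both forms were compared with the same 3 control arrays, so their comparisons with control are not independent of each other. In bulk RNA a change in how many cells express a gene cannot be told apart from a change in RNA per cell.

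In each of the 3 comparisons 4 of the 9 genes passed. With miR-376a*G against control ADAMTS1 and ADAMTS5 were higher and TIMP2 and TIMP3 lower, where 24.9% of all features passed, 11.8% as higher and 13.1% as lower. With miR-376a*A against control ADAMTS1, ADAM12 and TIMP3 were higher and ADAM17 lower, against 20.8% of all features, 10.8% higher and 10% lower. Between miR-376a*G and miR-376a*A the genes ADAMTS1, ADAMTS5 and ADAM17 were higher with miR-376a*G and TIMP3 was lower, against 18.3% of all features, 7.9% higher and 10.4% lower. Their share was thus above the background in each comparison, but the 9 genes were chosen with earlier results of these data known. Over 9 genes so chosen the share carries no test. The median difference of the 9 genes was -0.03, -0.01 and -0.01 in the order above, and that of all features was -0.004, 0.04 and -0.03.

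Changes of at least 2-fold that passed were found for 2 of the 9 genes, ADAMTS1 and ADAMTS5, with miR-376a*G against control, where 1.22% of all features reached that size. There were 0 such genes with miR-376a*A against control, where 0.917% of features did so by limma. Between the forms ADAMTS5 and TIMP3 reached it, against 0.997% of features. The groups of arrays did not overlap for 5, 4 and 7 of the 9 genes in the 3 comparisons, shares of all features of that kind being 38.3%, 36.7% and 42.2%.

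**Figure D1:**
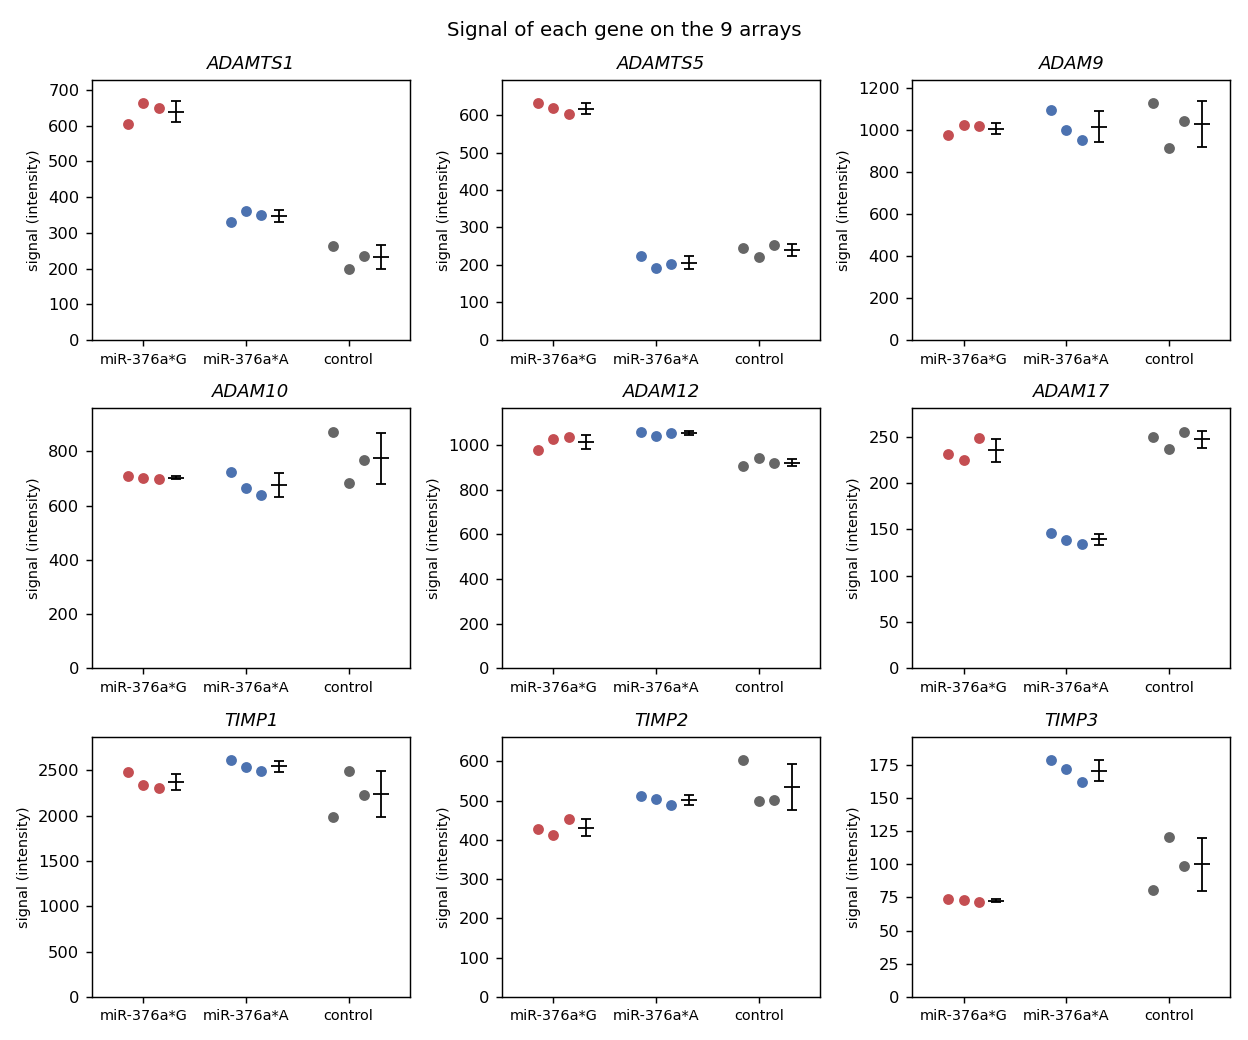
Signal intensity (linear axis from 0) of each of the 9 genes, with 1 panel per gene and 1 point per array for miR-376a*G, miR-376a*A and control; bars are the mean and SD of 3 arrays. The miR-376a*G arrays of ADAMTS1 and ADAMTS5 lie above all others, and the miR-376a*A arrays lie lowest for ADAM17 and highest for TIMP3.

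Among the secreted matrix proteases, ADAMTS5, an aggrecan- and versican-cleaving enzyme, passed against control with the edited form and not with the unedited one, and differed between them. Its signal was 631, 618 and 603 on the miR-376a*G arrays, 225, 192 and 201 on the miR-376a*A arrays, and 246, 221 and 253 on the control arrays. All miR-376a*G arrays were above all others, while the miR-376a*A and control arrays overlapped. The difference was 1.31 with miR-376a*G against control (SE 0.0763, adjusted p 1.46e-07, 2.48-fold), larger in size than that of 99.5% of features. For miR-376a*A against control it was -0.21 (95% interval -0.37 to -0.04, adjusted p 0.0745), below the threshold. The direct comparison of the forms gave 1.52 (95% interval 1.35 to 1.68, adjusted p 5.64e-08, 2.86-fold higher with miR-376a*G). The small difference of miR-376a*A from control passed as lower in 3 alternatives, at -0.25 (adjusted p 0.043) with arrays centred on their medians, -0.27 (0.0485) without miR-376a*A replicate 1 and -0.26 (0.029) without control replicate 2.

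ADAMTS1, a related protease that cuts versican, was higher with both forms and more so with the edited one. Its signal was 606, 663 and 649 with miR-376a*G, 329.8, 362 and 351 with miR-376a*A, and 264, 199 and 234 in control. The 3 groups did not overlap, with control lowest. The differences were 1.41 with miR-376a*G against control (adjusted p 3.51e-07, 2.65-fold) and 0.56 with miR-376a*A against control (95% interval 0.36 to 0.75, adjusted p 0.000906, 1.47-fold). Between the forms miR-376a*G was higher by 0.85 (95% interval 0.66 to 1.05, adjusted p 2.88e-05, 1.8-fold).

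The other probe sets of these genes told the same for the edited form. The other 3 probe sets of ADAMTS5 were higher with miR-376a*G by 0.72 to 1.01 against control and by 0.84 to 1.33 against miR-376a*A, and all of these passed. Between miR-376a*A and control they differed by -0.32 to -0.11, and none passed. The one at -0.32 passed with arrays centred on their medians (adjusted p 0.0396) and the filter at the 60th percentile (0.0431). It also passed without miR-376a*A replicate 1 (0.0456) or control replicate 2 (0.0209). The second ADAMTS1 probe set gave 141, 143 and 142 with miR-376a*G, 62.1, 80.2 and 78.3 with miR-376a*A, and 71.4, 49.8 and 59.0 in control. There miR-376a*G stood above both other groups, by 1.07 against control (adjusted p 1.96e-05) and 0.83 against miR-376a*A (adjusted p 0.0002), while miR-376a*A overlapped control at 0.24 (adjusted p 0.147). The rise of ADAMTS1 with the unedited form thus passed on 1 of its 2 probe sets. The second had the same sign and passed only without control replicate 1 (0.34, adjusted p 0.0291). The call of the gene held in all 20 alternatives, which include the mean of its probe sets.

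Both genes lie on chromosome 21, and in RefSeq (GRCh38.p14) there are 0 protein-coding genes between them. The named neighbours on the ADAMTS1 side with tested values were APP, the amyloid precursor gene, and GABPA, a transcription factor gene, and those on the ADAMTS5 side were HEMK2, a methyltransferase gene, LTN1 and RWDD2B. HEMK2 was higher with both forms, by 1.48 with miR-376a*G (adjusted p 4.68e-07) and 1.19 with miR-376a*A (adjusted p 3.92e-06) against control, and its difference of 0.29 between the forms did not pass (adjusted p 0.059). RWDD2B was higher with miR-376a*G by 0.26 against control (adjusted p 0.0284) and by 0.29 against miR-376a*A (adjusted p 0.0234). GABPA was lower with miR-376a*A against control by -0.39 (adjusted p 0.0423). APP and LTN1 passed in none of the 3 comparisons, with -0.20 and 0.25 for miR-376a*G against control. These neighbours were named after their values were seen.

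Among the membrane-bound sheddases ADAM17, the enzyme that releases tumour necrosis factor and several EGF receptor ligands, was lower with the unedited form. Its signal was 232, 225 and 249 with miR-376a*G, 146, 138 and 134 with miR-376a*A, and 249, 237 and 255 in control. The miR-376a*A arrays were all below the others, and the miR-376a*G and control arrays overlapped. With miR-376a*A against control the difference was -0.76 (SE 0.0713, 95% interval -0.91 to -0.60, adjusted p 1.08e-05, 1.69-fold lower). With miR-376a*G against control it was -0.07 (95% interval -0.22 to 0.09, adjusted p 0.546). Between the forms it was 0.69 (95% interval 0.54 to 0.85, adjusted p 2.23e-05, 1.62-fold higher with miR-376a*G).

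The 3 ADAM17 probe sets moved alike. The second gave 171, 179.8 and 195 with miR-376a*G, 122, 123 and 139 with miR-376a*A, and 244, 195 and 205 in control. The third gave 91.8, 90.2 and 92.2 with miR-376a*G, 57.5, 58.5 and 65.7 with miR-376a*A, and 126, 84.9 and 92.3 in control. On both, all miR-376a*A arrays were lowest, by -0.67 (adjusted p 0.00024) and -0.60 (adjusted p 0.00258) against control. Between the forms they differed by 0.45 (adjusted p 0.00427) and 0.49 (adjusted p 0.00976). The second probe set also had all miR-376a*G arrays below control, by -0.22, which did not pass (adjusted p 0.102). Without control replicate 2 that difference was -0.28 and passed (adjusted p 0.0468).

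ADAM10, the sheddase that cuts Notch receptors and N-cadherin, did not pass on its brightest probe set. Its signal was 708, 703 and 699 with miR-376a*G, 725, 665 and 638 with miR-376a*A, and 872, 684 and 767 in control, and the groups overlapped. The differences were -0.13 (95% interval -0.31 to 0.05, adjusted p 0.295) with miR-376a*G and -0.19 (95% interval -0.37 to -0.01, adjusted p 0.136) with miR-376a*A, each against control. Its other 2 probe sets passed as lower with miR-376a*A, by -0.29 (adjusted p 0.0274) and -0.34 (adjusted p 0.0425). The first of these calls ended with quantile normalization (adjusted p 0.0577) and without miR-376a*A replicate 2 (0.0871) or 3 (0.115). The second ended with no filter (0.0894), no trend (0.0519) and 2 groups only (0.0855), and on leaving out any miR-376a*G or miR-376a*A array or control replicate 1 or 3 (0.0585 to 0.115), its value being -0.20 without control replicate 1. The gene itself passed as lower with miR-376a*A when its probe sets were averaged (-0.27, adjusted p 0.031) and without control replicate 2 (-0.27, adjusted p 0.0225).

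ADAM12, a membrane protease that also has a secreted splice form and cuts insulin-like growth factor binding proteins, had small differences. Its signal was 979, 1029 and 1038 with miR-376a*G, 1059.9, 1042 and 1056 with miR-376a*A, and 908, 941 and 918 in control. The 3 groups did not overlap, with control lowest and miR-376a*A highest. The difference of miR-376a*A from control was 0.19 (95% interval 0.07 to 0.31, adjusted p 0.0276, 1.14-fold) and that of miR-376a*G was 0.14 (adjusted p 0.089). The call for miR-376a*A ended in 9 of 20 alternatives. They were arrays centred on their medians (adjusted p 0.0892), no trend (0.0705), 2 groups only (0.0743), the replicate block (0.0554), and the removal of control replicate 3 (0.0651), of miR-376a*A replicate 1 (0.0815), 2 (0.0836) or 3 (0.0908), or of miR-376a*G replicate 2 (0.0511). Of its other 4 probe sets 1 passed, a dim one with 48.9, 50.5 and 47.3 in miR-376a*G, 69.4, 54.9 and 65.5 in miR-376a*A, and 40.3, 43.7 and 38.6 in control. There miR-376a*A was higher than control by 0.48 (adjusted p 0.00275), and miR-376a*G was lower than miR-376a*A by -0.29 (adjusted p 0.0479). The second of these calls ended with arrays centred on their medians (adjusted p 0.116), quantile normalization (0.093), no filter (0.0865), an offset of 1 (0.051) and the replicate block (0.075). It also ended on leaving out any miR-376a*G array, control replicate 3, or miR-376a*A replicate 1 or 3 (0.0593 to 0.176).

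ADAM9, another membrane sheddase, passed in none of the 3 comparisons. Its signal was 978, 1025 and 1019 with miR-376a*G, 1097, 1001 and 952 with miR-376a*A, and 1127, 914 and 1045 in control, all overlapping. The differences were -0.03 (95% interval -0.20 to 0.15) with miR-376a*G and -0.01 (95% interval -0.19 to 0.16) with miR-376a*A against control. A second probe set, with 417, 434 and 438 in miR-376a*G, 398, 402 and 448 in miR-376a*A, and 637, 471 and 464 in control, had both miR-376a* groups below control. Its differences of -0.26 (adjusted p 0.0866) and -0.31 (adjusted p 0.053) did not pass. The latter passed with arrays centred on their medians (adjusted p 0.0353) and the filter at the 60th percentile (0.0403). Without control replicate 2 or 3 both passed (adjusted p 0.0281 and 0.0341 with miR-376a*A, 0.0435 and 0.0497 with miR-376a*G). The remaining probe set differed by 0.35 with miR-376a*G against control (adjusted p 0.196) and 0.38 between the forms (0.18), neither passing. Without miR-376a*G replicate 3 they passed (0.62 and 0.65, adjusted p 0.00469 and 0.00443).

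Of the 3 inhibitors, TIMP3, which binds to the matrix, showed the largest difference between the forms. Its signal was 73.6, 73.3 and 71.3 with miR-376a*G, 179, 172 and 162 with miR-376a*A, and 80.7, 121 and 98.6 in control. The groups did not overlap, with miR-376a*A highest and miR-376a*G lowest. With miR-376a*A against control the difference was 0.70 (SE 0.108, 95% interval 0.47 to 0.94, adjusted p 0.000605, 1.63-fold). Between the forms it was -1.07 (95% interval -1.31 to -0.84, adjusted p 1.83e-05, 2.11-fold lower with miR-376a*G), larger in size than that of 99.1% of features. The other 3 TIMP3 probe sets passed as well, by 0.55 to 0.88 with miR-376a*A against control and by -0.87 to -0.69 between the forms.

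The lower TIMP3 with miR-376a*G against control was less steady. It was -0.37 (95% interval -0.61 to -0.14, adjusted p 0.024, 1.29-fold lower) on the brightest probe set, and -0.19, -0.14 and 0.06 on the other 3, none of which passed. The call ended in 9 of 20 alternatives. They were quantile normalization (-0.32, adjusted p 0.0678), no filter (0.0545), the mean of the probe sets (-0.16, 0.102), 2 groups only (0.052), and the removal of miR-376a*G replicate 1 (0.0575), 2 (0.0649) or 3 (0.0725), or of control replicate 2 (-0.25, 0.0644) or 3 (0.0585).

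TIMP2, which both inhibits matrix metalloproteinases and helps to activate one of them at the cell surface, was lower with the edited form. Its signal was 427, 413 and 454 with miR-376a*G, 512, 503 and 487 with miR-376a*A, and 602, 499 and 502 in control. All miR-376a*G arrays were below the others, and the miR-376a*A and control arrays overlapped. The difference of miR-376a*G from control was -0.30 (95% interval -0.47 to -0.13, adjusted p 0.0154, 1.23-fold lower), and -0.27 (adjusted p 0.0723) without miR-376a*G replicate 2. The other probe sets differed by -0.14 (adjusted p 0.434) and -0.13 (adjusted p 0.194) and did not pass. The first of them passed without control replicate 1 (-0.30, adjusted p 0.0132). On the last, all miR-376a*G arrays (302 to 342) were below all control arrays (353 to 355). Between the forms the difference on the brightest probe set was -0.21 (adjusted p 0.0846). It passed with the 2 groups alone (adjusted p 0.00923) and without control replicate 1 (adjusted p 0.00783).

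TIMP1, a broad inhibitor of matrix metalloproteinases that also inhibits ADAM10, passed in none of the comparisons. Its signal was 2478, 2335 and 2306 with miR-376a*G, 2611, 2535 and 2489 with miR-376a*A, and 1986, 2497 and 2233 in control. The miR-376a*A arrays were above the miR-376a*G arrays, while control overlapped with both. The differences were 0.09 (95% interval -0.07 to 0.25) with miR-376a*G against control, 0.19 (95% interval 0.03 to 0.35, adjusted p 0.091) with miR-376a*A against control and -0.10 (95% interval -0.26 to 0.06) between the forms. Without control replicate 2 the difference of miR-376a*A from control was 0.27 and passed (adjusted p 0.00915).

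**Figure D2:**
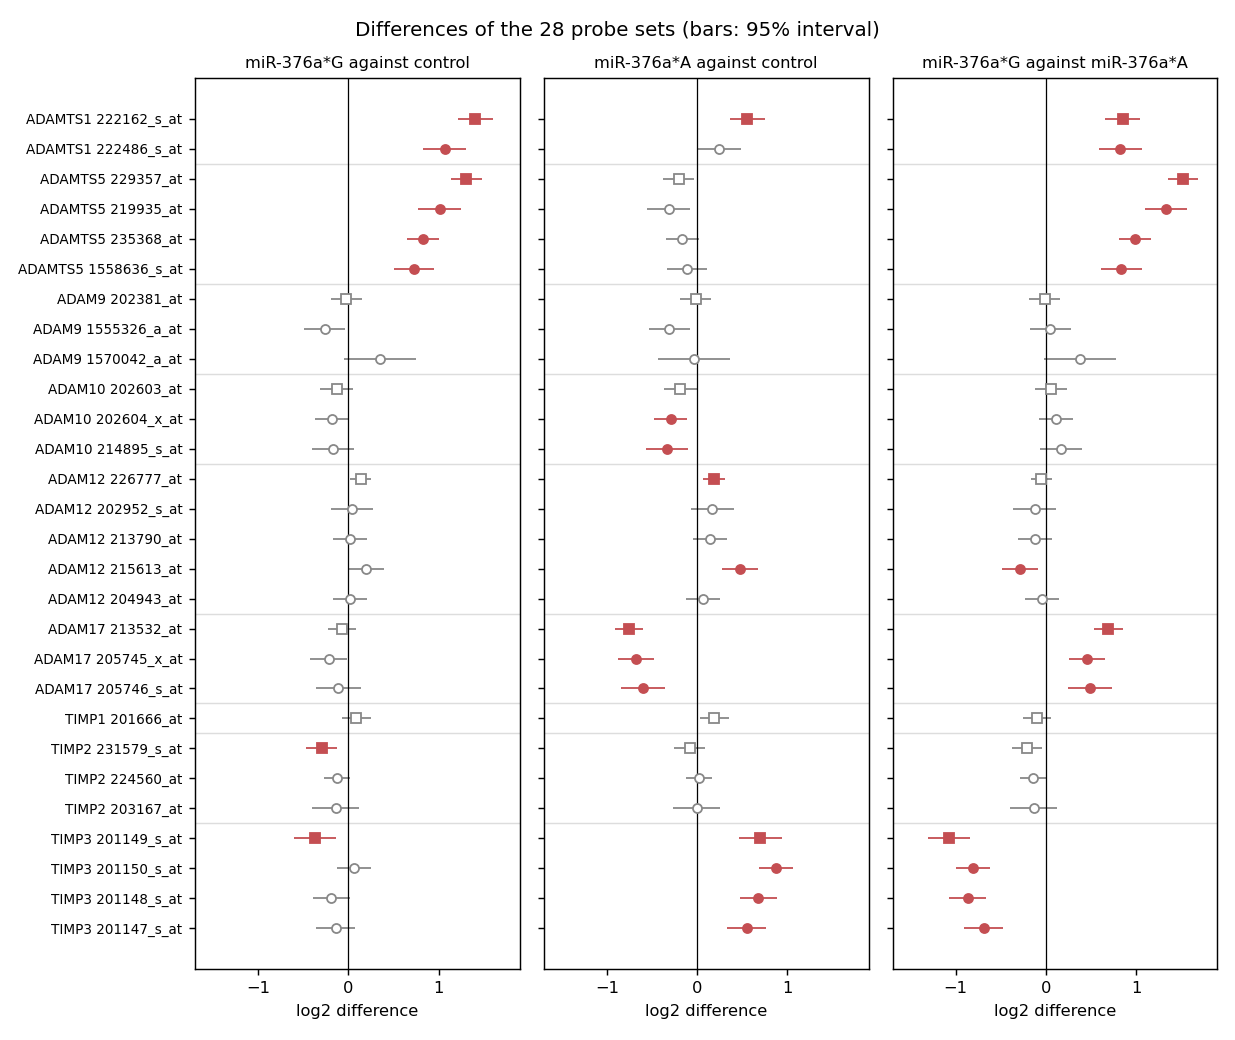
Log2 difference (x axis) of each of the 28 probe sets in the 3 comparisons, with bars for the 95% interval; filled red symbols passed, open ones did not, and squares mark the probe set used for the gene. The 4 ADAMTS5 probe sets lie to the right with miR-376a*G, the 3 ADAM17 probe sets to the left with miR-376a*A, and the 4 TIMP3 probe sets to the left between the forms.

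Counted over probe sets, 8 of 28 passed with miR-376a*G against control, where 25.8% of all 32768 probe sets did. With miR-376a*A against control 12 of 28 passed against 21.3%, and between the forms 14 of 28 against 18.1%. Probe sets of one gene read the same transcripts in part and are not independent of each other. The first of these shares was thus near the background.

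**Figure D3:**
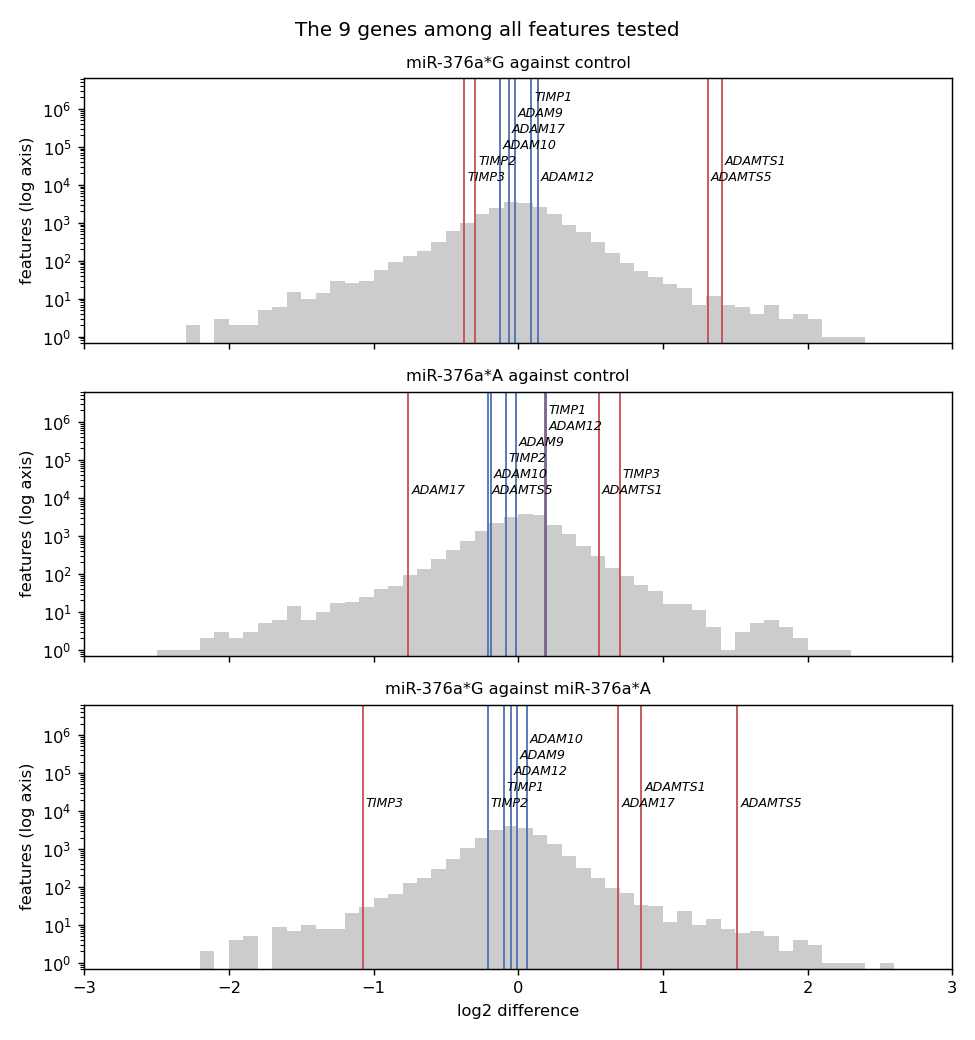
Histogram of the log2 differences (x axis) of all 20068 features, with the number of features on a log axis, in the 3 comparisons; vertical lines mark the 9 genes, red where they passed and blue where they did not. ADAMTS1 and ADAMTS5 lie in the upper tail with miR-376a*G, and ADAM17 and TIMP3 lie on opposite sides between the forms.

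The genes that followed each gene most closely over the 9 arrays were found by the root mean square difference of the log2 values, each centred on its own mean. Nearest to ADAMTS5 were DKK1, an inhibitor of Wnt signalling (0.113), LIF, a cytokine (0.171), and CCN1, a secreted matrix protein (0.175). Nearest to ADAMTS1 were the chemokine CXCL1 (0.121), USP38 (0.134) and KLHL8 (0.153). TIMP3 was followed by DDIT4 (0.111), DLX5 (0.125) and SNX21 (0.144), and ADAM17 by MIPEP (0.0537), BICD1 (0.0546) and DENR (0.0734). The smaller values for ADAM12 (PDIA6, 0.0262) and TIMP2 (ZBTB1, 0.0213) go with the smaller spread of those genes over the arrays. All these distances are over the same 9 arrays and describe likeness only.

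Of the 9 genes, ADAM10, ADAM12, ADAM17, TIMP1 and TIMP3 had an entry in the RefSeq promoter table, and the 250 bases before each start were searched on both strands for short motifs. The GC box was searched as GGGCGG. The CCAAT box was searched as its name spells it. The AP-1 site was searched as TGANTCA. The TATA box was searched as TATAAA. No motif was allowed a mismatch, and matches were counted without regard to overlap with other motifs. ADAM17 and TIMP3 are shown because miR-376a*G and miR-376a*A differed for both, in opposite directions (GRCh38.p14, chr2:9555831-9556080, minus strand, and chr22:32801455-32801704, plus strand, 5′ to 3′ along the gene, matches in capitals).
ADAM17: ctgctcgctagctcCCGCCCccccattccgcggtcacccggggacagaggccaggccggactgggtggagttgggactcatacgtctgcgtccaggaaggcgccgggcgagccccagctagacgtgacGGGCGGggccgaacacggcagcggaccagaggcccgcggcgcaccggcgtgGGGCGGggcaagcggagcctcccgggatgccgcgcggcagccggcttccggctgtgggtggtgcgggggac
TIMP3: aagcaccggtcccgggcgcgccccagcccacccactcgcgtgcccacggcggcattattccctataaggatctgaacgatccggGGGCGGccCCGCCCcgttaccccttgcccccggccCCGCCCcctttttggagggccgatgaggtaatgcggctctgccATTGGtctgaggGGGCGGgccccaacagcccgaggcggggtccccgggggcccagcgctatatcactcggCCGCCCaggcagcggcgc
The TIMP3 stretch held 5 GC boxes and 1 CCAAT match, which lies on the opposite strand, and the ADAM17 stretch held 3 GC boxes. ADAM12 had 3 GC boxes, TIMP1 2 and ADAM10 1. A GC box was present in 42.6% and CCAAT in 32% of 35116 promoters of the same length. The AP-1 site (6.57% of promoters) and the TATA box (10.7%) had 0 matches in all 5, which says only that these letters are not in these windows.

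Other genes of the pathway were taken from lists of family members, inhibitors, activating factors and substrates. Of 8 tested other ADAM genes, 1 was higher and 1 lower with miR-376a*G against control, 4 were higher and 0 lower with miR-376a*A against control, and 0 were higher and 2 lower between the forms. ADAM19, a membrane protease that cuts neuregulin, averaged 40.9 ± 2.39 with miR-376a*G, 93.8 ± 12.3 with miR-376a*A and 62.0 ± 4.95 in control (SD, n = 3 each). Its differences were -0.45 (adjusted p 0.00432) and 0.49 (adjusted p 0.00341) against control and -0.94 (adjusted p 2.15e-05) between the forms. Its second probe set gave -0.24, -0.05 and -0.19, none of which passed, and with probe sets averaged the rise with miR-376a*A was 0.22 (adjusted p 0.13). ADAM21, a gene known for its expression in testis, was higher with both forms, by 0.83 (adjusted p 5.69e-05) and 0.67 (adjusted p 0.000387). Its second probe set gave 0.16 (adjusted p 0.282) and 0.20 (adjusted p 0.194), neither of which passed, and the gene was not tested with the filter at the 60th percentile. ADAM8 was higher with miR-376a*A by 0.42 (adjusted p 0.00717), and by 0.24 (adjusted p 0.0573) with probe sets averaged. ADAM33 was higher by 0.86 (adjusted p 0.0267), a call that ended on leaving out any miR-376a*A array or control replicate 1 or 2 (adjusted p 0.0575 to 0.0797), with no filter (0.0895) and with 2 groups only (0.0512). Its value was 0.55 without control replicate 1. ADAM33 was dim, averaging 28.1 ± 6.46 with miR-376a*G, 47.0 ± 2.77 with miR-376a*A and 21.3 ± 17.9 in control (SD, n = 3 each). ADAM21 was dim as well, averaging 36.0 with miR-376a*G, 30.6 with miR-376a*A and 13.3 in control.

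Of 11 tested other ADAMTS genes, 1 was higher (ADAMTS3, 0.46, adjusted p 0.00468) and 1 lower (ADAMTS16, -0.50, adjusted p 0.01) with miR-376a*G against control. ADAMTS16 was dim, averaging 11.9 with miR-376a*G, 16.3 with miR-376a*A and 23.7 in control. With the filter at the 60th percentile the count lower was 0. Higher with miR-376a*A against control were 2, ADAMTS18 (0.40, adjusted p 0.00362) and ADAMTS2, a procollagen-processing enzyme (0.30, adjusted p 0.031). The ADAMTS2 call ended in 8 of 20 alternatives (adjusted p 0.0533 to 0.107), among them the removal of any miR-376a*A array or of control replicate 1 or 3. Between the forms 3 were lower with miR-376a*G: ADAMTS13 (-0.46, adjusted p 0.0202), the von Willebrand factor-cleaving enzyme, ADAMTS12 (-0.34, adjusted p 0.0238) and ADAMTS18 (-0.27, adjusted p 0.0307). The calls between the forms ended for ADAMTS13 without miR-376a*G replicate 1 or miR-376a*A replicate 1 or 2 (adjusted p 0.0537 to 0.0739), for ADAMTS12 in 6 of 20 alternatives, among them the removal of miR-376a*G replicate 2 or 3 or of any miR-376a*A array (adjusted p 0.0544 to 0.0918), and for ADAMTS18 without miR-376a*G replicate 2 or 3 or any miR-376a*A array (adjusted p 0.0612 to 0.143). The ADAMTS18 call also ended with arrays centred on their medians (adjusted p 0.0767) and with probe sets averaged (-0.11, adjusted p 0.393), its second probe set differing by 0.05. The ADAMTS13 call also ended with no filter on dim probe sets (adjusted p 0.0632). RECK, a membrane-anchored metalloproteinase inhibitor, was lower with miR-376a*G by -0.49 (adjusted p 0.00502) as 1 of 5 inhibitors and clearance receptors, and by -0.21 (adjusted p 0.114) with probe sets averaged. Of 13 activating and trafficking factors 1 was higher and 1 lower with miR-376a*G against control, 1 higher with miR-376a*A against control and 2 lower between the forms. Leaving out 1 array turned the count higher with miR-376a*G to 0 (miR-376a*G replicate 1), that lower with miR-376a*G to 0 (miR-376a*G replicate 2 or 3) and that higher with miR-376a*A to 0 (miR-376a*A replicate 3, control replicate 2 or 3). The count lower between the forms became 1 on leaving out any miR-376a*G array or miR-376a*A replicate 1, and 4 without control replicate 1. The 2 lower between the forms were TSPAN10 (-0.36, adjusted p 0.0104) and TSPAN14 (-0.49, adjusted p 0.0253). The TSPAN14 call ended with no filter (adjusted p 0.07). It also ended on leaving out any miR-376a*G array or miR-376a*A replicate 1 or 3 (0.0581 to 0.102). FURIN, a convertase that removes the inhibitory prodomain of many of these enzymes, was lower with miR-376a*G by -0.47 (adjusted p 0.0307), a call lost on leaving out miR-376a*G replicate 2, miR-376a*G replicate 3 or control replicate 2 (adjusted p 0.0732 to 0.113), with quantile normalization (0.0585) and with no filter (0.0834). Its value was -0.30 without control replicate 2. PCSK5, also a convertase, was higher against control by 0.36 (adjusted p 0.0131) with miR-376a*G and 0.31 (adjusted p 0.0323) with miR-376a*A. The first call ended without miR-376a*G replicate 1 (adjusted p 0.0556). The second ended with no filter (0.0664) and 2 groups only (0.0589). It also ended without miR-376a*A or control replicate 2 or 3 (0.0543 to 0.146). The other 2 PCSK5 probe sets differed by 0.24 to 0.29 (none passed) and 0.34 to 0.37 (both passed).

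Of 25 tested shed surface proteins, 2 were higher and 8 lower with miR-376a*G against control, 6 higher and 3 lower with miR-376a*A against control, and 3 higher and 9 lower between the forms. Over all features 11.8% were higher and 13.1% lower with miR-376a*G, 10.8% and 10% with miR-376a*A, and 7.9% and 10.4% between the forms, and these shares apply to every list here. The 2 higher with miR-376a*G became 1 without miR-376a*G replicate 1 or 2. The median differences of the list were -0.08, 0.09 and -0.13, against -0.004, 0.04 and -0.03 for all features. CDH2, the cell adhesion protein N-cadherin, averaged 352 ± 29.0 with miR-376a*G, 361 ± 14.2 with miR-376a*A and 93.4 ± 11 in control (SD, n = 3 each), higher by 1.75 (adjusted p 5.63e-08) and 1.79 (adjusted p 4.2e-08). PRNP, the prion protein, was lower with miR-376a*G by -0.86 against control (adjusted p 5.13e-07) and by -1.10 against miR-376a*A (adjusted p 7.41e-08). AXL, a receptor kinase, was lower with both forms, by -0.53 (adjusted p 3.22e-05) with miR-376a*G and -1.01 (adjusted p 1.45e-07) with miR-376a*A. IL6R, the interleukin 6 receptor, was lower by -1.09 (adjusted p 5.01e-06) and -0.59 (adjusted p 0.000934). Of 11 tested matrix and binding-protein substrates 3 were higher with miR-376a*G, namely IGFBP3 (0.50, adjusted p 0.0007), IGFBP5 (0.44, adjusted p 0.0111) and THBS2 (0.26, adjusted p 0.0335). IGFBP5 was dim, averaging 22.3 with miR-376a*G, 19.2 with miR-376a*A and 12.2 in control. Its difference of miR-376a*A from control was 0.32 (adjusted p 0.0567), and 0.63 with an offset of 1, which passed (adjusted p 0.04997). It also passed with no trend (0.038) and without control replicate 2 (0.0265). IGFBP3 was also the 1 gene of that list to pass with miR-376a*A (0.33, adjusted p 0.0113), a call lost without miR-376a*A replicate 2 (adjusted p 0.0624) and with probe sets averaged (adjusted p 0.112). The THBS2 call ended in 9 of 20 alternatives (adjusted p 0.0524 to 0.127), among them the removal of any miR-376a*G array, miR-376a*A replicate 2 or control replicate 2 or 3.

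**Figure D4:**
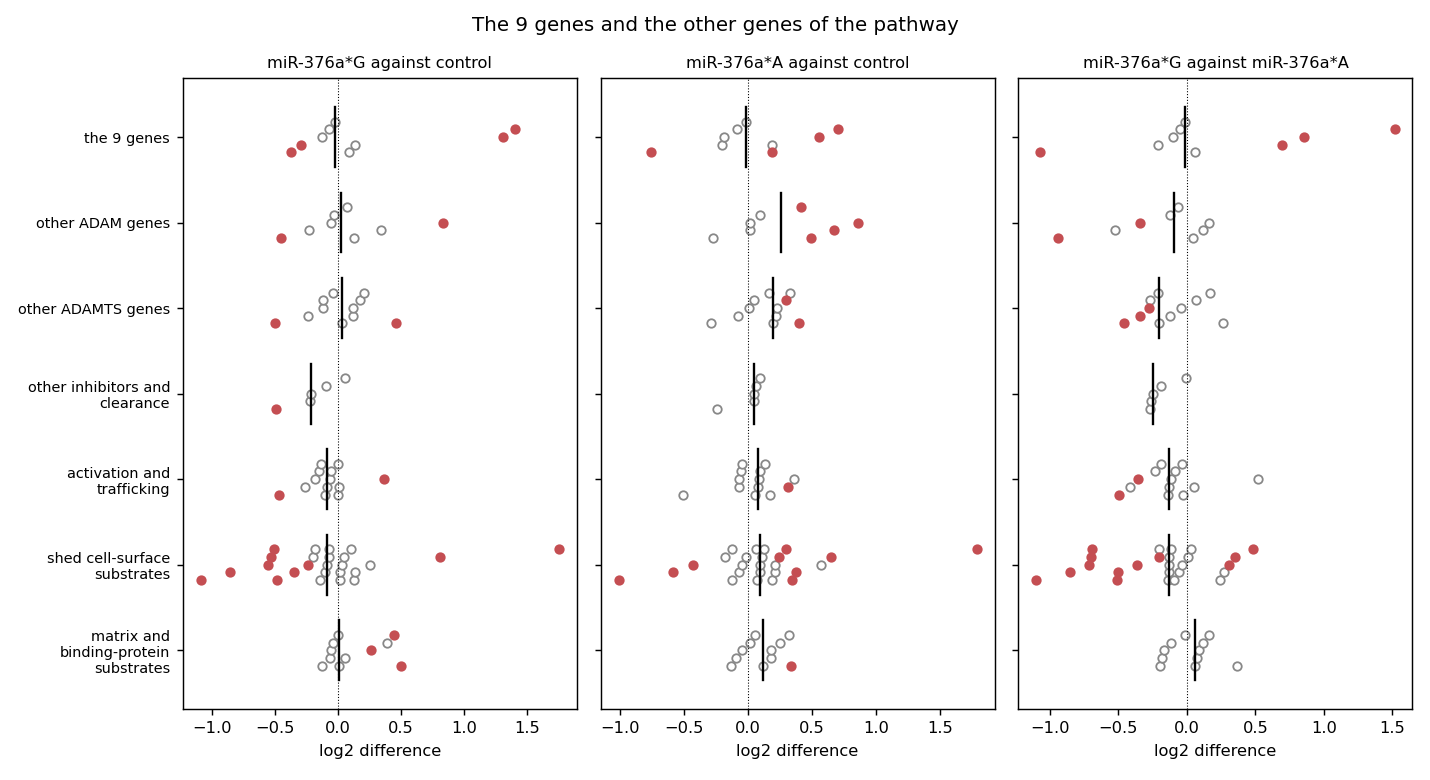
Log2 difference (x axis) of every tested gene of the 9-gene group and of 6 other lists (rows) in the 3 comparisons; filled red points passed, open points did not, and black bars are list medians. The shed surface proteins have more filled points on the left with miR-376a*G against control, 8 lower and 2 higher.

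Facts of the whole series bear on these values as follows. Array values scattered around their group means with an SD of 0.166 and 0.145 (log2) for control replicates 1 and 2, and 0.102 to 0.114 for the other arrays, and the median SE of a difference was 0.101. RAP2A, a small GTPase known in published work as a target of the unedited form and used as a check of the labels, had a mean signal of 1021 with miR-376a*G, 566 with miR-376a*A and 891 in control, and was lower with miR-376a*A by -0.64 (adjusted p 0.000177). Of 12 mesenchymal and glioma markers 10 passed the filter. VIM and CD44 were bright on all arrays, SOX2 (14.4 to 26.1) and OLIG2 (15.2 to 23.5) were dim, and GFAP and S100B did not pass. Their summed signal was 8823 to 9223 with miR-376a*G, 10210.01 to 11227 with miR-376a*A and 9351 to 10209 in control. The 12 markers of other cell types, 6 of them past the filter, summed to 154 to 179 with miR-376a*G, 240.2 to 244 with miR-376a*A and 184 to 214 in control. Neither sum overlapped between groups, and both were lowest with miR-376a*G and highest with miR-376a*A. In the first sum miR-376a*A and control were only just apart. The median signal of all probe sets of an array was 17.9 to 19.2 with miR-376a*G, 19.6 to 20.3 with miR-376a*A and 19.0 to 19.1 in control. PECAM1 was the brightest of the second list at 41.3 to 87.3, while the endothelial VWF and CDH5 stayed at or under 7.73. Their part in the differences above was not tested. Labels name biological replicates without saying more, so p-values measure the spread between these samples.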

How the data were processed

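RNA of 9 transfected U87 cultures, 3 per group, was measured on 1 array each. Labelling used biotin-ULS on 1 µg of total RNA, per the labels' protocols. The authors deposited linear signal intensities per probe set. The submitters' processing notes name GCOS 1.4.0.036. How the signals were summarised and to what target they were scaled is not given in the sources used here. Scaling to a common trimmed mean hides a shift of all transcripts together.

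Array controls (62 of 54675 probe sets) were left out. The analysis used log2(signal + 16), with no scaling added. A probe set was kept if its mean reached the 40th percentile of all (4.77, equal to a signal of 11.3). Of the 32768 probe sets left, those with a single gene symbol were reduced to the brightest per gene, giving 13697 features. Probe sets without a single symbol were kept as they were, giving 20068 features in all. limma 3.58.1 in R 4.3.3 (lmFit, eBayes with trend) was fitted to all 9 arrays. Residual degrees of freedom were 6 and prior ones 6.48. Two-sided tests had Benjamini-Hochberg adjustment over all features, or over 32768 probe sets for single probe sets. Adjusted p-values in the text are limma's. The analysis was tested on simulated data. Noise there was independent, with the same SD of a feature on every array, so the unequal scatter of these arrays was not covered. The number of arrays limits the precision. Tables were made in Python 3.11.15 (pandas 2.3.3, numpy 2.4.6) and figures with matplotlib 3.10.9.

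The 9 genes and the lists were chosen with earlier results of these data known. Named genes were all 9, up to 4 passing genes of smallest p per list, the 3 genes nearest in pattern to each of the 9 that passed anywhere, and RAP2A; ADAMTS2, ADAMTS12 and the neighbours on chromosome 21 were named after their values were seen. The 20 alternatives covered scaling, filter, offset, variance model, probe set rule, arrays in the fit, the replicate block and each array left out. Symbols come from the platform annotation and RefSeq for GRCh38.p14, used for names, chromosomes and neighbours.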

Additional observations from a re-analysis of the deposited data

How the results depend on the processing

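Of 27 results (9 genes in 3 comparisons) 20 kept their call in all 20 alternatives, and 0 reversed. Reversed means a change of sign where the result passed in the main fit or in the alternative. The sign of ADAM9, which did not pass, held in 18, 17 and 16 of 20 alternatives in the 3 comparisons. That of ADAM12 between the forms and of TIMP2 with miR-376a*A against control, also not passing, held in 19. Of the 12 that passed, 9 passed in all: the exceptions were ADAM12 with miR-376a*A and TIMP2 and TIMP3 with miR-376a*G, each against control. The number of the 9 genes lower with miR-376a*G against control was 2, and 1 with quantile normalization, no filter on dim probe sets, the mean of the probe sets or only the 2 groups compared; leaving out 1 array gave 0 to 2, with 0 without miR-376a*G replicate 2. The number lower with miR-376a*A against control was 1, and 2 with arrays centred on their medians or the mean of the probe sets; leaving out 1 array gave 1 to 3, with 3 without control replicate 2. The number lower with miR-376a*G against miR-376a*A was 1, and 2 with only the 2 groups compared; leaving out 1 array gave 1 to 2. With the mean of the probe sets, TSPAN17 with miR-376a*A against control reversed to -0.28 (adjusted p 0.0405), and NRG1 between the forms reversed to -0.083 (adjusted p 0.412). The cause was not tested. Centring on medians changed the split of higher and lower features to 1659 and 2353, against 2164 and 2013, with miR-376a*A against control, and to 2217 and 1509, against 1585 and 2086, between the forms. Between the forms 2532 features were higher with only the 2 groups compared, 2416 without control replicate 1, and 971, 993 and 1034 without miR-376a*G replicate 2, miR-376a*G replicate 3 and miR-376a*A replicate 2; 1360 were lower without miR-376a*G replicate 2. With miR-376a*A against control 1422 and 1429 were higher without miR-376a*A replicates 2 and 3. With 1 array left out, counts in the other lists not given above also moved: other ADAM genes lower between the forms 1 to 3, against 2; other ADAMTS genes lower between the forms 0 to 4, against 3; inhibitors lower with miR-376a*G against control 1 to 3, against 1; matrix substrates higher with miR-376a*A against control 0 to 3, against 1. With the replicate block the features higher and lower numbered 2240 and 2474 with miR-376a*G against control, 2015 and 1825 with miR-376a*A against control, and 1414 and 1911 between the forms. The labels share replicate numbers, but the 9 pairs of arrays with the same number correlated at -0.103 to 0.063 in their deviations, so the numbers were not taken as pairing; of the calls of the 9 genes the block changed that of ADAM12 (adjusted p 0.0554). Array signals near background limit the dimmest probe sets.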
